A study of Sus scrofa with 2 samples.

Results

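The HOX gene clusters of the pig (Sus scrofa) were described in the chromatin folding map of spleen. Members were the protein-coding genes of the RefSeq table of Sscrofa11.1 whose symbol is HOXA, HOXB, HOXC or HOXD followed by a number. The genes analysed were 35 of the 19549 protein-coding genes on placed chromosomes, namely 10 HOXA, 8 HOXB, 9 HOXC and 8 HOXD genes. HOXB4, HOXB9 and HOXD4, which mammals also carry, matched no symbol of that table and were not analysed here. The data came from in situ Hi-C, a method that reads out which stretches of the folded genome touch each other, on spleen tissue in 2 biological replicates of a single group. No treatment or second tissue was compared, and the labels give no breed, age or sex of the animals. Contact data hold no marker transcripts, so the labelled tissue could not be checked, and whole spleen is a mixture of cell types whose folding is averaged.

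HOX genes encode homeodomain transcription factors that set position along the body axis of the embryo. Within a cluster the genes lie in the order in which they act, from the low-numbered, anterior genes to the high-numbered, posterior ones, and genes with the same number in different clusters are paralogues. The clusters are held by Polycomb complexes where they are silent and opened stepwise by trithorax proteins, and HOXA and HOXB genes are known for their use in blood stem and progenitor cells. In the embryo, domain borders inside or beside a cluster separate the distant enhancers that reach its anterior and its posterior genes.

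The folding map consisted of 2 lists for the whole series, 1927 topologically associating domains (TADs, blocks of a chromosome whose contacts are mostly internal) and 3410 loops (pairs of 25 kb anchors with more contacts than their surroundings). TAD edges lay on a grid of 10 kb. Neither list separates the replicates, so no value below has a replicate error and no test between samples was possible. The sequencing depth is unknown here, and the contacts per loop are the only measure of precision. A gene was counted at an anchor, or near a TAD edge, by its annotated ends, within 20 kb in the case of edges. Genes of a cluster share edges and anchors, so counts of HOX genes are not counts of independent loci. No cause of any pattern below was tested.

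TAD edges ran through HOXA, HOXB and HOXC, whereas HOXD lay whole inside a single long TAD. In HOXA, HOXB and HOXC the TAD that held most of the cluster took in its low-numbered genes and left high-numbered genes outside. Loops started in HOXC alone, and no loop was listed with an anchor in HOXA, HOXB or HOXD. In all, 26 of the 35 HOX genes lay whole inside a TAD, against 26.0% of all protein-coding genes, and these 26 genes fell in 5 TADs. Without HOXD the count was 18 of 27. Of the listed genes beside the clusters, described below, 18 of 30 also lay whole inside a TAD. By cluster these were 2 of 6 beside HOXA, 4 of 10 beside HOXB, 5 of 7 beside HOXC and 7 of 7 beside HOXD. A share above that of all protein-coding genes was thus not limited to HOX genes. An end near a TAD edge was found for 13 of the 35, against 18.7% of all protein-coding genes, and all 13 lay at 3 edges. HOXA gave 7 of its 10 genes to that count. Without HOXA it was 6, from 4 of 8 HOXB, 2 of 9 HOXC and 0 of 8 HOXD genes. An end in a loop anchor was found for 5 of the 35, against 17.3% of all protein-coding genes, and without HOXC for 0.

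**Figure D1:**
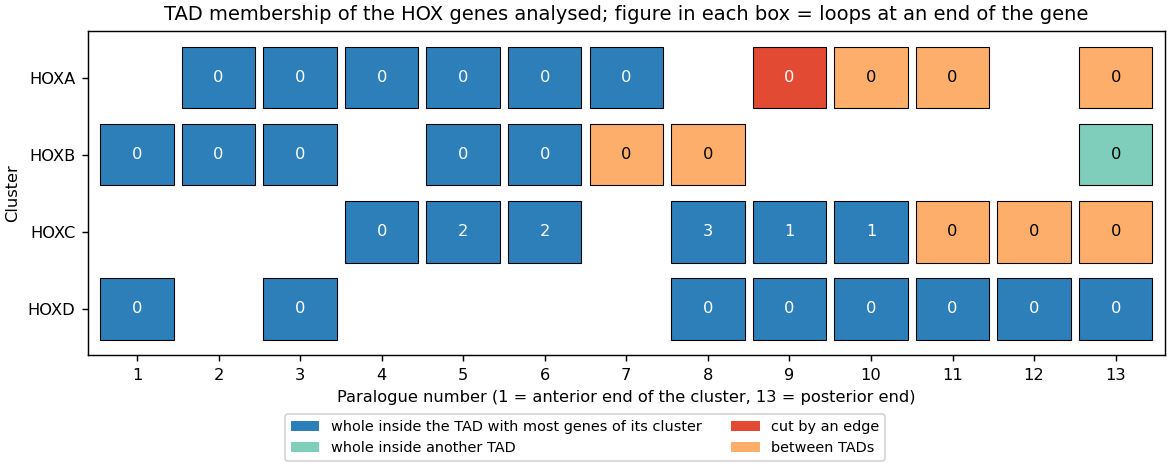
Each box is a HOX gene, placed by cluster (rows) and paralogue number (columns). Its colour gives the gene's place relative to the listed TADs, and the figure in it the number of loops at its ends. HOXA, HOXB and HOXC each have a run of low-numbered genes in the TAD with most genes of the cluster. Genes that are cut by an edge or lie between TADs follow, and HOXB13 lies whole inside another TAD. HOXD has all 8 genes in its TAD.

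The HOXA genes analysed spanned 100 kb on chromosome 18, from 45373340 to 45473345, with HOXA13 at the lower coordinate. A single TAD edge lay inside it, the start at 45410001 of a TAD of 350 kb that ended at 45760000. HOXA7, HOXA6, HOXA5, HOXA4, HOXA3 and HOXA2 lay whole inside this TAD. It also held 2 unnamed coding loci and part of SKAP2, which encodes an adaptor protein of leukocyte signalling. HOXA13, HOXA11 and HOXA10 lay outside it, in a gap of 400 kb between TADs, with EVX1, a homeobox gene that neighbours the cluster. The edge fell inside HOXA9, a gene of blood progenitors, 1.51 kb before its annotated upper end. It was 6.74 kb from HOXA10 on one side and 7.14 kb from HOXA7 on the other, less than a grid step, so the edge cannot be placed on either side of HOXA9. An edge cut 9.85% of all protein-coding genes. Among autosomal tiles of the length of this span with at least 5 protein-coding genes, 29.2% held an edge.

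Around HOXA no loop anchor was listed for 2275 kb. The nearest anchors ended 1600 kb below HOXA13 and began 577 kb above HOXA2. Of all autosomal protein-coding genes, 21.0% lay in an anchor-free stretch at least that long, and 39.3% of the gene-dense tiles of this length held an anchor. The first loop above HOXA joined an anchor with an end of SNX10, a sorting nexin, to an anchor with an end of NFE2L3, a transcription factor of the NRF family. It had 111 contacts against 65.8 expected, with an FDR of 0.0343 in the authors' deposited table (the largest of 4 listed for each loop). It lay within the next TAD, from 46050001 to 46290000, with 2 further loops.

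The HOXB cluster ran from 24784953 to 24950661 on chromosome 12, a span of 166 kb with HOXB1 at the lower coordinate. It was the sole HOX cluster with 2 TAD edges inside. A TAD of 330 kb ended at 24860000, between HOXB6 and HOXB7, and a TAD of 340 kb began at 24900001, between HOXB8 and HOXB13. The first TAD held HOXB1, HOXB2, HOXB3, HOXB5 and HOXB6 whole and part of SKAP1, which encodes an adaptor of the T cell receptor pathway. HOXB7 and HOXB8 lay in the gap of 40 kb between the TADs, with no other coding gene of the table. HOXB9, which in mammals lies between HOXB8 and HOXB13, had no match there and was not placed. Across the genome, gaps between TADs had a median length of 360 kb. HOXB13, the posterior gene that stands apart from the rest of the cluster, lay in the second TAD. Its companions there were TTLL6, CALCOCO2, ATP5G1, UBE2Z, SNF8 and GIP, with part of IGF2BP1. The edge at 24860000 was 6.51 kb from HOXB6 and 1.17 kb from HOXB7, both less than a grid step. The edge at 24900000 was 20.3 kb from HOXB8 and 48.3 kb from HOXB13. Of gene-dense tiles of this length, 41.8% held an edge and 6.34% held 2 or more.

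No loop anchor was listed for 1225 kb around HOXB, from 735 kb below HOXB1 to 324 kb above HOXB13. Such a stretch or a longer one held 36.4% of autosomal protein-coding genes, and 48.2% of the gene-dense tiles of this length held an anchor. The first loop past HOXB13, of 100 kb, had 137 contacts against 22.3 expected, a ratio of 6.14. Neither anchor held an end of a coding gene, but each lay inside one, an unnamed locus and B4GALNT2. Expected contacts differed widely there, with 17.2 and 78.5 at the next loops of 100 kb.

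The HOXC cluster spanned 117 kb on chromosome 5, from 19151096 to 19268267, with HOXC13 at the lower coordinate. A TAD of 210 kb began at 19190001, between HOXC11 and HOXC10, and ended at 19400000 inside SMUG1, which encodes a uracil-DNA glycosylase of base excision repair. The TAD held HOXC10, HOXC9, HOXC8, HOXC6, HOXC5 and HOXC4 whole. HOXC13, HOXC12 and HOXC11 lay outside it, in a gap of 300 kb between TADs that held CALCOCO1 as its other coding gene. The edge was 0.969 kb from HOXC11 and 7.81 kb from HOXC10, both less than a grid step. Of gene-dense tiles of this length, 32.9% held an edge.

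Loops started from 2 adjoining anchors in HOXC and all ran towards SMUG1 and the genes past it, away from HOXC13. The first anchor, from 19200001 to 19225000, held ends of HOXC10, HOXC9 and HOXC8. The second, from 19225001 to 19250000, held ends of HOXC8, HOXC6 and HOXC5. HOXC8, with an end in each, thus had 3 loops, HOXC6 and HOXC5 had 2 each, and HOXC10 and HOXC9 had 1 each. Just outside, the lower end of HOXC4 lay 0.411 kb past the second anchor, and HOXC11 ended 11 kb before the first. Of gene-dense tiles of this length, 41.4% met a loop anchor and 9.09% met 3 or more loops.

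The loop from the first HOXC anchor reached the bin from 19400001 to 19425000, 200 kb away, which held an end of SMUG1. It had 95 observed contacts (exact 95% Poisson interval 76.9 to 116, counting error only) against 36.9 expected from the surrounding donut of pixels. Its FDR in the authors' deposited table was 2.14e-05. The left anchor began 10 kb inside the TAD that holds HOXC10 to HOXC4, and the right anchor began at the far edge of that TAD. The second anchor reached the same SMUG1 bin over 175 kb, with 87 contacts (69.7 to 107) against 39.5 expected and an FDR of 0.00112 in the authors' deposited table. These pixels touch and may describe a single contact.

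The third HOXC loop ran over 325 kb from the second anchor to the bin from 19550001 to 19575000, with 58 contacts (44 to 75) against 22.2 expected and an FDR of 0.0219 in the authors' deposited table. That bin held both ends of GPR84, a fatty acid receptor of myeloid cells, and an end of ZNF385A, a zinc finger protein. The loop left the HOXC TAD and spanned the whole next TAD, from 19410001 to 19570000, whose far edge met its right anchor. This neighbouring TAD held CBX5, the heterochromatin protein HP1 alpha, HNRNPA1, NFE2, a transcription factor of erythroid cells and megakaryocytes, and COPZ1. It also held GPR84 whole and parts of SMUG1 and ZNF385A. It had 2 loops of its own, of which the loop from 19450001 to 19575000, with 160 contacts against 96.1 expected, shared the GPR84 anchor with HOXC.

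Listed loops were called because they exceed the expected contacts, so a ratio above 1 is no finding. The HOXC ratios were 2.57 (2.08 to 3.15), 2.20 (1.76 to 2.71) and 2.61 (1.99 to 3.38), where the intervals carry the Poisson error of the observed count alone. Among autosomal loops of the same span the medians were 2.07 (256 loops), 2.04 (342 loops) and 2.26 (78 loops). Of those loops, 7.42%, 28.4% and 11.5% had a higher ratio. The interval of the 200 kb loop lay just above the median of its span, and the other intervals included theirs. With the lower-left expected value of 41.6, the ratio of the 200 kb loop was 2.28. The medians were not matched for expected contacts, which were 36.9 for the 200 kb loop against a median of 49.7 for its span. Whether the 200 kb loop exceeds loops with as few expected contacts was therefore not tested. Expected contacts at the HOXC loops were low, below the lower quartiles of 42.2, 43.9 and 28.6 for the same spans. Observed contacts were also below the medians of 109, 108 and 84.

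**Figure D2:**
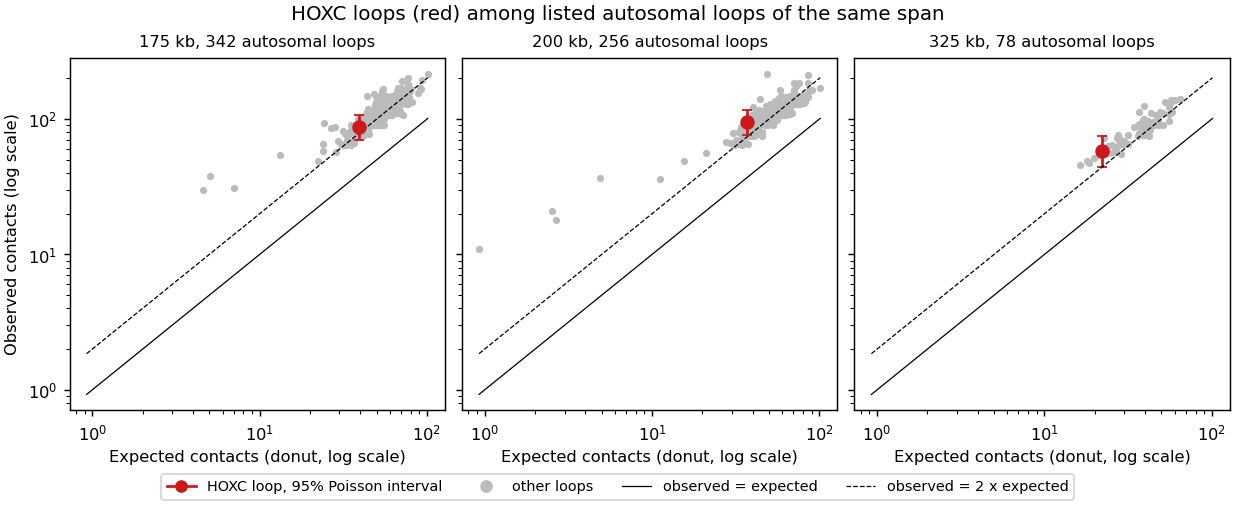
Observed against expected contacts on log axes for listed autosomal loops with spans of 175, 200 and 325 kb (panels). Grey points are single loops, the red point is the HOXC loop with its exact 95% Poisson interval, the solid line marks equality and the dashed line a ratio of 2. The HOXC loops, with 87, 95 and 58 contacts, lie below the median observed and expected contacts of their spans and above the dashed line.

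The HOXD cluster was the shortest, with 96.0 kb on chromosome 15 from 81893997 to 81990026 and HOXD13 at the lower coordinate. All 8 genes, HOXD13, HOXD12, HOXD11, HOXD10, HOXD9, HOXD8, HOXD3 and HOXD1, lay inside a TAD of 1270 kb from 81200001 to 82470000. Of the TADs on placed chromosomes, 2.34% were at least as long, and the median was 260 kb. No edge fell inside the cluster, and 29.4% of gene-dense tiles of its length held one. The nearest edges were 694 kb below HOXD13 and 480 kb above HOXD1. The TAD held 12 coding genes, all near its middle. Beside the HOXD genes and an unnamed locus they were EVX2, a homeobox gene, LNPK, which shapes the endoplasmic reticulum, and MTX2, a mitochondrial import protein. The outermost coding genes were LNPK and MTX2, with 522 kb free of coding genes between LNPK and the lower edge and 331 kb between MTX2 and the upper edge.

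No loop anchor met the HOXD TAD. The anchor-free stretch was 1800 kb, from 794 kb below HOXD13 to 910 kb above HOXD1, and 26.2% of autosomal protein-coding genes lay in one at least as long. Among gene-dense tiles of the length of HOXD, 39.2% held an anchor. Of the 97 TADs of 1 Mb or more, 72.2% met no anchor, so the absence was the usual state of TADs of this length. The 3 TADs with HOXA and HOXB genes met no anchor either, against 35.3% of all TADs.

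**Figure D3:**
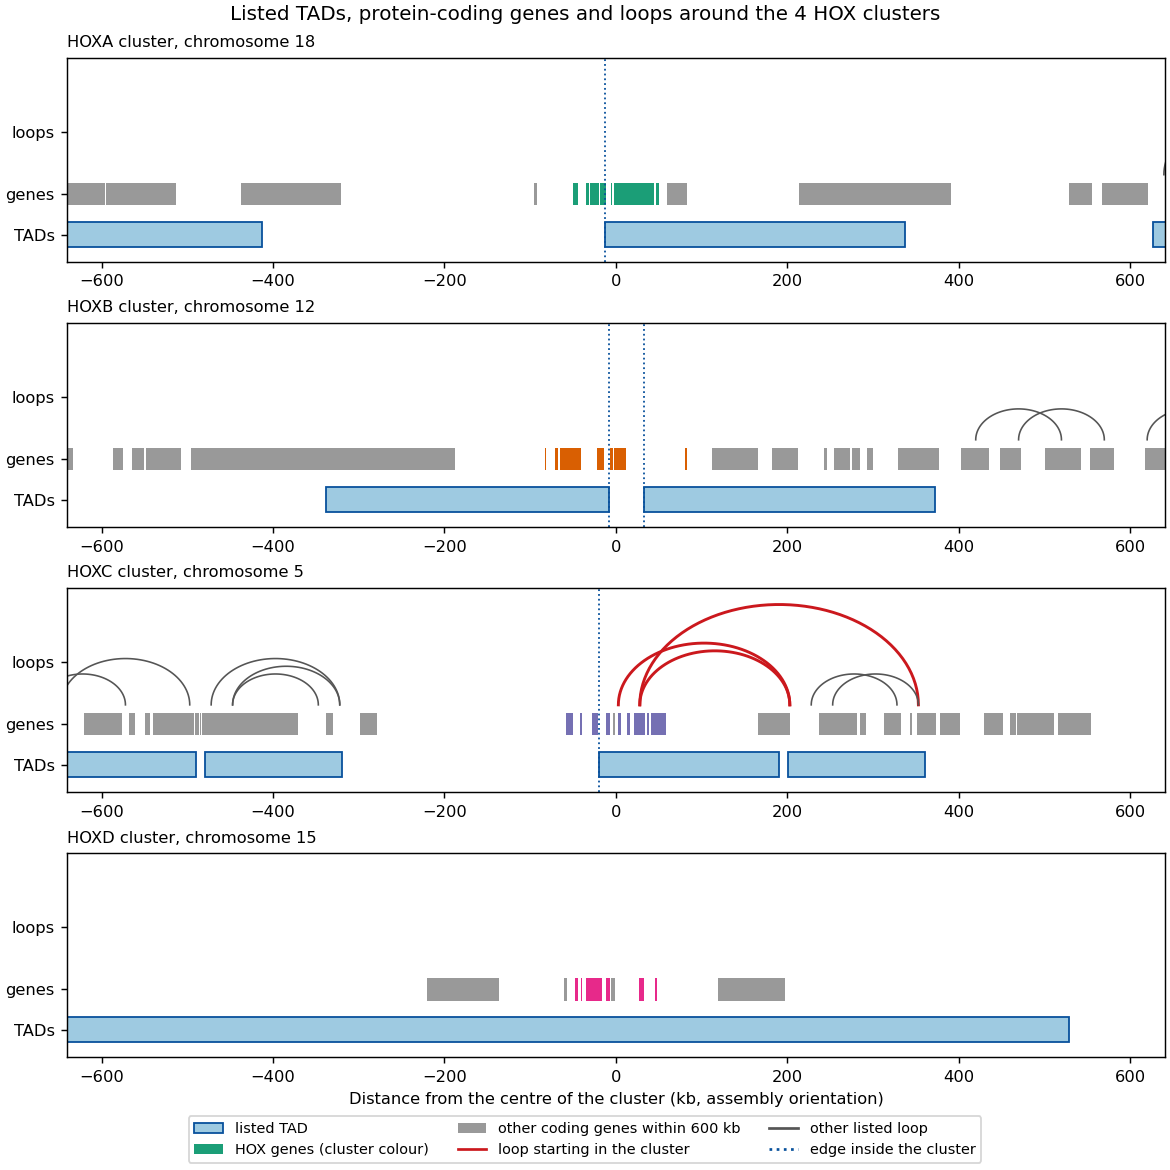
Listed TADs (blue bars), protein-coding genes and loops (arcs between anchor midpoints) against the distance in kb from the centre of each cluster. HOX genes are coloured, other coding genes within 600 kb are grey, loops that start in a cluster are red and other loops dark grey. Dotted lines mark the 4 TAD edges inside clusters. Red arcs appear in the HOXC panel alone, and the HOXD panel shows the cluster in the middle of a TAD of 1270 kb.

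**Figure D4:**
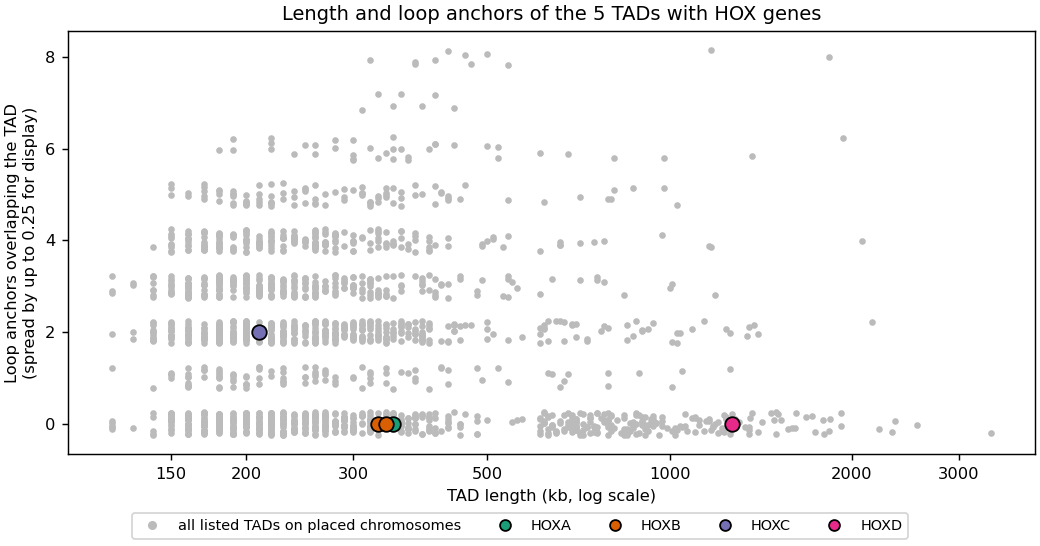
Number of loop anchors that overlap each listed TAD on a placed chromosome against its length on a log axis. Grey points are all 1923 TADs and coloured points the 5 TADs that hold HOX genes. The HOXC TAD of 210 kb meets 2 anchors, and the other 4, of 330 to 1270 kb, meet 0.

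Distances to the nearest TAD edge followed from these layouts. In HOXA they ranged from 1.51 kb for HOXA9 to 60.1 kb for HOXA2, with a median of 15.7 kb. The HOXB genes lay 1.17 kb (HOXB7) to 73.6 kb (HOXB1) from an edge, with a median of 21.4 kb. The HOXC range was 0.969 kb (HOXC11) to 60.4 kb (HOXC4), with a median of 31.0 kb. In HOXD the distances were 480 kb (HOXD1) to 572 kb (HOXD13), with a median of 546 kb. The range of HOXD did not overlap the others, and the median over all protein-coding genes was 107 kb. The members on either side of the 20 kb limit were HOXA5 at 19.7 kb and HOXC12 at 20.3 kb. HOXA3, at 11.5 kb, was counted by an annotated span of 46262 bases that runs across HOXA6, HOXA5 and HOXA4.

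**Figure D5:**
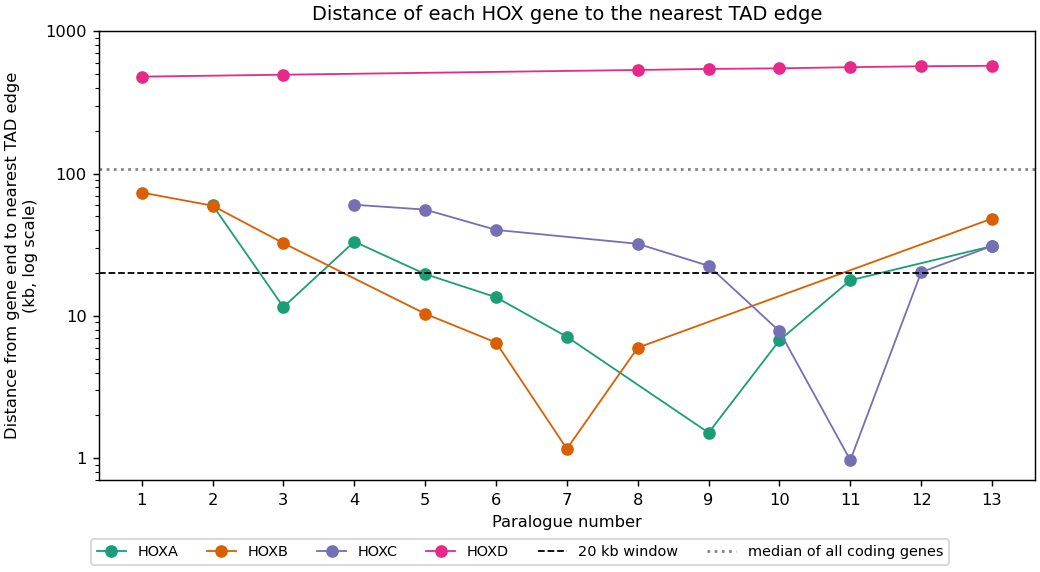
Distance in kb (log axis) from the nearer annotated end of each HOX gene to the nearest TAD edge, by paralogue number. Lines join the genes of a cluster, the dashed line marks 20 kb and the dotted line the median of all protein-coding genes, 107 kb. Genes of HOXA, HOXB and HOXC lie below that median, with their lowest points at HOXA9, HOXB7 and HOXC11, and all HOXD genes lie above it.

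By position along the cluster, all 7 anterior genes (numbers 1 to 3) lay whole inside a TAD, as did 11 of 13 central genes (4 to 8) and 8 of 15 posterior genes (9 to 13). Without HOXD the counts were 5 of 5, 10 of 12 and 3 of 10. The share of all protein-coding genes was 26.0%, so the posterior share without HOXD (30.0%) was near it. These 3 posterior genes were HOXC10 and HOXC9, in the TAD with the lower-numbered HOXC genes, and HOXB13, in a TAD with no other HOX gene. The 9 HOX genes not whole inside a TAD were HOXA13, HOXA11, HOXA10, HOXA9, HOXB7, HOXB8, HOXC13, HOXC12 and HOXC11. As listed, the edge lay at a different paralogue in each cluster. Paralogues 9 and 10 lay inside the TAD in HOXC, whereas HOXA10 was outside and HOXA9 was cut. The edge was 1.51 kb from the upper end of HOXA9 and 7.81 kb from HOXC10, both less than a grid step. TADs widened by 10 kb held HOXA9, and narrowed TADs lost HOXC10, so this contrast between HOXA and HOXC is not resolved. HOXB8 was between TADs, whereas HOXC8 was inside. Loops were at the ends of HOXC genes 5 to 10, of which 3 are central and 2 posterior. HOXC has no gene numbered 1 to 3, so anchors could not be compared by position along the clusters. The split rests on the placement of 4 edges, and no test of it was made.

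The genes beside the clusters are in part paralogues of each other, since whole chromosome stretches were copied with the clusters. Of 31 such neighbours listed, 30 matched the table and 7 had an end in a loop anchor, a share of 23.3% against 17.3% of all protein-coding genes. By cluster these were 4 of 7 beside HOXC, 1 of 6 beside HOXA, 0 of 10 beside HOXB and 2 of 7 beside HOXD. The list was not complete, and the counts depend on it. NFE2L3 beside HOXA and ATF7 beside HOXC, also at an anchor, were not on it. Beside HOXC the listed genes at an anchor were ATP5G2, a subunit of the mitochondrial ATP synthase, with 3 loops, SMUG1, CBX5 and COPZ1. SMUG1 had 2, the HOXC loops described above, and CBX5 and COPZ1 had 1 each. COPZ1 belongs to the coat of Golgi vesicles. Their paralogues beside HOXB, namely ATP5G1, CBX1 and COPZ2, had 0. SNX10 beside HOXA had 1 loop, and its paralogue SNX11 beside HOXB had 0. ATF2, a transcription factor of the stress response, and ATP5G3, both on the HOXD side but outside its TAD, had 1 each. SKAP2 and SKAP1 had no loop, and each was cut by the outer edge of the TAD that held the low-numbered genes of its cluster. EVX1 and EVX2 also had no loop.

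Genes that act with or on the HOX clusters were listed by function for comparison. Of 11 genes of the TALE homeodomain class, some of which encode proteins that bind DNA together with HOX proteins, 2 were at an anchor. These were MEIS1 and PBX4 with 1 loop each. MEIS2 and MEIS3 lay 3.01 and 4.08 kb from a TAD edge and were the 2 of 11 near an edge (18.2%). Of 24 other homeobox genes related to the HOX genes, 0 were at an anchor. DLX5 and DLX6, at 6.31 and 19.7 kb, were the members of that list near an edge (8.33%). Among 29 Polycomb genes 6 were at an anchor, with 2 loops for RNF2, a ubiquitin ligase of Polycomb complex 1, and 1 each for the others, among them CBX7, JARID2 and PCGF2. The list of 18 trithorax, demethylase and associated genes had 7 at an anchor (38.9%), with 2 loops for KDM6B, which removes the Polycomb mark, 2 for MLLT3, and 1 each for KMT2B and KMT2C, which methylate histone H3. Near an edge were 9 of the 29 Polycomb genes (31.0%) and 4 of the 18 trithorax and associated genes (22.2%). The share of all protein-coding genes near an edge was 18.7%. Whole inside a TAD were 5 of the 11 TALE genes, 10 of the 29 Polycomb genes and 8 of the 18 trithorax and associated genes. For the other homeobox genes it was 6 of 24, against 26.0% of all protein-coding genes. The shares at an anchor stand beside 17.3% of all protein-coding genes and 5 of 35 for HOX, and no list was tested.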

How the data were processed

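In situ Hi-C of pig spleen (2 replicates) was deposited as a TAD list and a loop list for the whole series. Per the labels' protocols, chromatin was fixed with formaldehyde and cut with DpnII. The tools included HiC-Pro 3.1.0, per the submitters' processing notes. For the TAD caller, its settings and any pooling of replicates, nothing is given in the sources used here. Per the file headers, juicer_tools 1.9.9 wrote the loop list, with observed contact counts per pixel, not normalized. The deposited expected signal comes from the donut or lower-left neighbourhood, in contacts. The deposited FDR columns are q-values, and the largest of the 4 was used per loop. No header names the build. It was taken as Sscrofa11.1, since listed features ended at most 160 kb past the last annotated gene of each autosome.

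The gene table has no strand, so both annotated ends stood for a gene. Tiles were cut end to end along chromosomes 1 to 18 at each cluster's length. The members and lists were chosen with earlier results of these data known. A gene that is not reported here was left out of all counts and spans. Named were the HOX genes analysed, genes at partner anchors, the nearest neighbours and up to 4 members per list by loops. Of 113 list entries 112 matched, 3 through older symbols of ATP synthase genes. The overlap code was tested on simulated data against direct enumeration. No test was run, since neither list separates the replicates. No promoter or protein sequences were used here. Python 3.11.15, numpy 2.4.6, pandas 2.3.3 and scipy 1.17.1 were used.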

Additional observations from a re-analysis of the deposited data

How the results depend on the processing

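No replicate could be left out, and counting genes by their 5′ ends alone was not run, since the gene table gives no strand. Of 26 alternatives, 21 left a count within 1.5 times its value or the loop ratio within its interval. HOX genes near a TAD edge numbered 13 within 20 kb, 8 within 10 kb (background 11.1%), 20 within 40 kb (29.6%) and 0 where only edges shared by adjoining TADs counted (0.0153%). Without HOXA there were 6 (background 18.7%), from 4 of 8 HOXB, 2 of 9 HOXC and 0 of 8 HOXD genes. At loop anchors there were 5, and 0 without HOXC. Alternatives chosen after seeing the data were leaving out a cluster and moving the TAD edges. TADs widened by 10 kb on each side held 29 HOX genes (background 28.9%), gaining HOXA9, HOXB7 and HOXC11. Narrowed TADs held 23 (22.9%), losing HOXA7, HOXB6 and HOXC10. When touching pixels counted once, 2 HOXC loops were left, those of 200 and 325 kb. Dropping loops above the median FDR also left 2, but here the 325 kb loop was lost. Those of 200 and 175 kb that stayed are the touching pixels that may describe a single contact. The depth of each replicate is unknown, so loops with few contacts may be missing from the list.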

Other observations

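The HOX clusters held 20 further annotated genes, of which 11 were lncRNA genes, 5 miRNA genes, 3 unnamed coding loci and 1 of another RNA class. MIR196A-2, between HOXC10 and HOXC9 (chromosome 5, 19204442 to 19204548), lay in the first HOXC anchor and had 1 loop. MIR615, inside the span of HOXC5 (19246763 to 19246850), lay in the second anchor and had 2. Members of the miR-10 and miR-196 families are known to target HOX transcripts. MIR10A lay in the TAD with HOXB1 to HOXB6, MIR196A-1 lay between TADs with HOXB7 and HOXB8, and MIR10B lay in the HOXD TAD, each with 0 loops. Without strand, which of these RNAs run antisense to a HOX gene was not determined.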
